A study of Homo sapiens with 6 samples.

Results

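Cells of HCA-7, a human line from a colorectal cancer, grow out in type 1 collagen as colonies of either of 2 shapes. Cystic colonies are round and surround a lumen, whereas spiky colonies send protrusions into the gel. The clone cc3 forms cystic and the clone sc1 spiky colonies, and the comparison asked which genes separated the clones at every point of the culture. Its members were all 6 arrays of the study, 3 labelled spiky and 3 labelled cystic, paired by culture day 5, 10 and 15, and within them 12317 of 19775 measured genes with a mean log2 level of at least 5. Both clones were seeded at the same density in type 1 collagen without any treatment named in the labels, and total RNA came from the cell-containing middle layer of the gel. Each colony shape was represented by a single clone, so a difference between colony shapes cannot be told apart from a difference between these clones. There was 1 array per clone and day, and nothing in the labels says that the days were separate cultures. Each p-value thus tests for a mean clone difference over the days. The spread used is how far the daily differences departed from a constant, with a variance prior shared over genes. That spread mixes array noise with change of the difference over the days, holds no replicate cultures, and may be technical. Values are log2 levels on Affymetrix U133 Plus 2.0 arrays, differences are spiky minus cystic, and their precision is bounded by having 6 arrays.

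An epithelial cyst forms when cells hold a common apical surface, seal it with tight junctions, anchor to basement membrane through laminin and integrins, and pump ions and water into the lumen. Protrusions into collagen draw on actin bundling, contractility, proteases that open the matrix, and guidance receptors that were first described in growing axons. Secreted WNT inhibitors of the dickkopf family, BMP ligands and chemokines act between cells and are made by colorectal cancer cells themselves.

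The arrays carried the marks of epithelial cells. Of 15 colonic epithelial markers, EPCAM (mean 11.78 for the cystic arrays, 11.75 for the spiky ones), CDH1, KRT8, KRT18, KRT19 and TSPAN8 were bright and VIL1 was moderate. The intestinal markers CDX1, CDX2, CDH17, CEACAM5, GPA33, KRT20, LGALS4 and PHGR1 all had group means under log2 5, close to background, in both clones. Among markers of other cell types, 12 of 16 leukocyte, 10 of 14 fibroblast and 9 of 11 endothelial genes had means under 5, and the leukocyte gene PTPRC was at 2.82 and 3.07. The median leukocyte marker level ran from 4.02 to 4.31 on cystic and from 3.88 to 4.28 on spiky arrays. The other 4 leukocyte genes were LYZ, which encodes lysozyme and is also made by epithelial cells (9.79 and 8.44), CSF1R (6.10 and 5.17), CORO1A (5.72 and 5.15) and CD3D (5.23 and 5.13). All 4 had negative differences, with a median of -0.75, and LYZ was called (-1.34, limma adjusted p = 0.000236). As a sign of RNA integrity, the ACTB control probe sets gave a log2 signal at the 3' end that exceeded the 5' end by 2.83, 3.18 and 3.28 for the cystic clone at day 5, 10 and 15, compared with 2.73, 2.74 and 3.10 for the spiky clone. It was lower on the spiky array of each day, and its part in the results was not tested.

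Across the 3 days, 5539 of 12317 tested genes (45.0%) differed in the same direction at every day. A linear model in limma with culture day as a factor called 1405 genes (11.4%) at a Benjamini-Hochberg adjusted p under 0.05, of which 452 (3.67%) were higher and 953 (7.74%) lower in the spiky clone. These shares are the background for every gene list. Among the calls, 1404 kept 1 sign at all days, and for 288 of the higher and 670 of the lower genes no spiky array overlapped a cystic one, which held for 677 (5.50%) and 1247 (10.1%) of all tested genes. A difference of at least log2 1 at each day was found in 43 genes with higher (0.349%) and 93 with lower levels (0.755%) in the spiky clone, and of at least log2 2 at each day in 8 and 15 genes. The count of calls moved with the arrays used: it was 521 and 509 without the cystic or spiky array of day 5, 786 and 787 without that of day 10, and 2157 and 2153 without that of day 15. With day as a factor, the partner of a left-out array adds nothing to the clone difference. Both counts of a pair thus rest on the same remaining days and are not separate checks. The count of calls fell to 72 with culture day left out of the model. With day 5, 10 and 15 left out in turn, 1.14%, 2.14% and 6.24% of all tested genes were called higher. The lower shares were 2.90%, 4.19% and 11.4%, and both are the background for list counts without a day. Of 131 called genes that the naming rule chose, 90 were also called with both arrays of day 5 left out, 112 without day 10 and 131 without day 15. Centring each array on its median gave 643 higher and 803 lower calls, so that 55.5% rather than 67.8% were lower. Of the lower calls 217 lay on chromosomes 13 and 21, where 338 genes were tested, and 736 elsewhere, where 11979 were tested (6.14%). The calls elsewhere were not spread evenly. Chromosome 9 had 109 lower and 39 higher calls among 519 tested genes. Chromosome 15 had 84 lower and 6 higher calls among 389. GALNT12, XPA, KDM4C, CNTLN and MPDZ, described below, lie on chromosome 9.

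**Figure D1:**
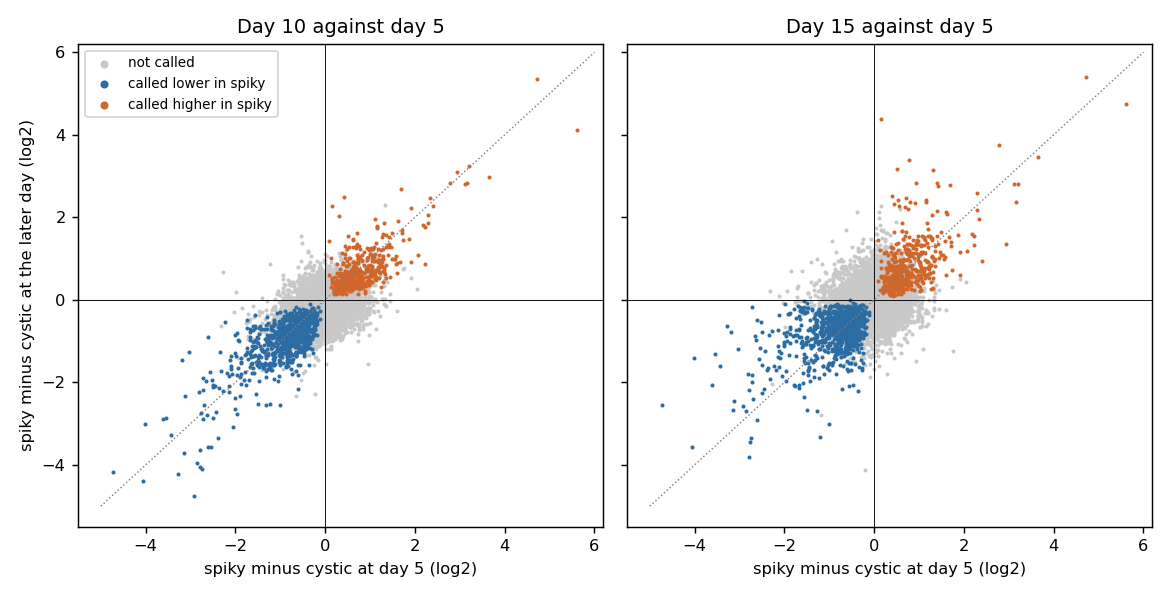
Spiky minus cystic difference (log2) of each tested gene at day 10 (left) and day 15 (right) against that at day 5, with the 452 genes called higher and the 953 called lower in colour and a dotted line of equality. Called genes lie almost wholly in the quadrants of equal sign, and the lower genes with large differences at day 5 spread above the line at day 15.

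The size of the differences was shared between days. Across genes, and with genes not being independent replicates, the daily differences correlated at 0.678 between day 5 and day 10, at 0.526 between day 10 and day 15, and at 0.482 between day 5 and day 15. Genes called lower had median differences of -0.72, -0.83 and -0.67 at day 5, 10 and 15. Those called higher had 0.63, 0.56 and 0.68. Among the 245 genes (1.99%) called at least log2 1 lower, 135 (55.1%) had their smallest difference at day 15, compared with 27 of 102 (26.5%) of the genes called at least log2 1 higher (0.828% of those tested). The share over all tested genes was 34%.

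The 2 largest positive differences were those of VCAN and GJC1. VCAN encodes versican, a large proteoglycan that binds hyaluronan, and measured 4.0, 3.81 and 4.29 at day 5, 10 and 15 of the cystic clone, against 8.72, 9.15 and 9.70 for the spiky clone. No cystic array reached log2 5, a level close to background, and every spiky array lay above 8, a fold of at least 18.3 when dim arrays are set to log2 5 (log2 difference 5.16, SE 0.19, limma adjusted p = 7.52e-06). GJC1, which encodes the gap junction protein connexin 45, stood at 2.83, 3.73 and 3.30 for the cystic clone against 8.44, 7.85 and 8.04 for the spiky one. Its spiky values thus lay at least 4.12 above every cystic one, as was also true of VCAN with a gap of 4.44. The transmembrane collagen gene COL13A1 was measurable in both clones, at 6.08, 5.78 and 6.98 against 8.42, 8.24 and 8.94 (4.75-fold, adjusted p = 0.000162). MPDZ, a scaffold with many PDZ domains at tight junctions, was at 4.31, 3.63 and 3.78 against 6.60, 5.68 and 6.37. Both other bright COL13A1 probe sets and all 3 of VCAN had the same sign, while GJC1 and MPDZ had no other bright probe set.

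Genes of signalling and transcription were also among the 12 largest positive differences. RASGRF2, an exchange factor that activates Ras and Rac, was at 3.85, 4.50 and 4.44 for the cystic clone against 7.49, 7.48 and 7.90 for the spiky one. Only VCAN, GJC1 and RASGRF2 met the rule of lying under log2 5 on all cystic and at log2 7 or more on all spiky arrays (0.0244% of tested genes). MECOM, which encodes the zinc finger transcription factor EVI1, was at 4.20, 3.81 and 4.15 against 7.33, 6.62 and 6.95 (at least 3.91-fold, adjusted p = 8.72e-05). PPP1R14A, an inhibitor of myosin phosphatase that favours contraction, was at 4.86, 4.39 and 4.58 against 8.02, 7.20 and 6.94, again without overlap. DKK3, a secreted protein of the dickkopf family, was at 6.87, 6.77 and 8.67 against 10.06, 10.01 and 11.47. Its difference of 3.08 (SE 0.13, adjusted p = 9.54e-06) varied by an SD of only 0.25 between days although both clones were brightest at day 15.

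Of the other leading genes, PLAC8 was at 7.15, 6.80 and 6.21 in the cystic and 9.93, 9.63 and 9.97 in the spiky clone (8.72-fold). The carboxypeptidase gene CPA4 was at 5.57, 4.27 and 4.24 against 7.25, 6.96 and 7.02. CYP24A1, whose product inactivates vitamin D, was at 4.77, 4.29 and 4.25 against 7.71, 7.37 and 5.60, so that its difference was largest at the earlier days. The vitamin D receptor gene VDR itself was lower in the spiky clone, at 10.20, 9.69 and 10.02 against 10.44, 10.40 and 10.62 (difference -0.51, adjusted p = 0.0148), and CYP27B1, whose product makes the active hormone, was also lower (-0.99, adjusted p = 0.0226). ATOH8, a basic helix-loop-helix factor, closed the group with the least even difference: 5.92, 5.15 and 5.47 in the cystic clone against 6.07, 7.43 and 9.84 in the spiky clone (adjusted p = 0.0405).

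The 12 largest negative differences included enzymes, chemokines, guidance ligands, a mucin and a zinc finger gene. NUDT11, a nudix hydrolase gene on the X chromosome that acts on inositol pyrophosphates, was at 8.20, 8.39 and 7.90 for the cystic clone against 4.15, 4.0 and 4.35 for the spiky one (at least 8.98-fold, log2 difference -4.0, SE 0.20, adjusted p = 4.13e-05). HPGD, which starts the breakdown of prostaglandin E2, was at 8.02, 7.46 and 6.11 against 3.30, 3.28 and 3.56. All spiky HPGD values were near background, so its smaller difference at day 15, -2.55 against -4.72 at day 5, came with a lower cystic level. GALNT12, which starts mucin-type O-glycans, was at 7.32, 7.62 and 7.62 against 4.56, 4.87 and 4.17, and the transmembrane mucin gene MUC1 at 8.33, 7.68 and 8.83 against 4.71, 4.80 and 6.77. Both differed without overlap of the arrays. NUDT11, GALNT12 and CXCL2 were the genes under log2 5 on all spiky and at 7 or more on all cystic arrays (0.0244%).

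**Figure D2:**
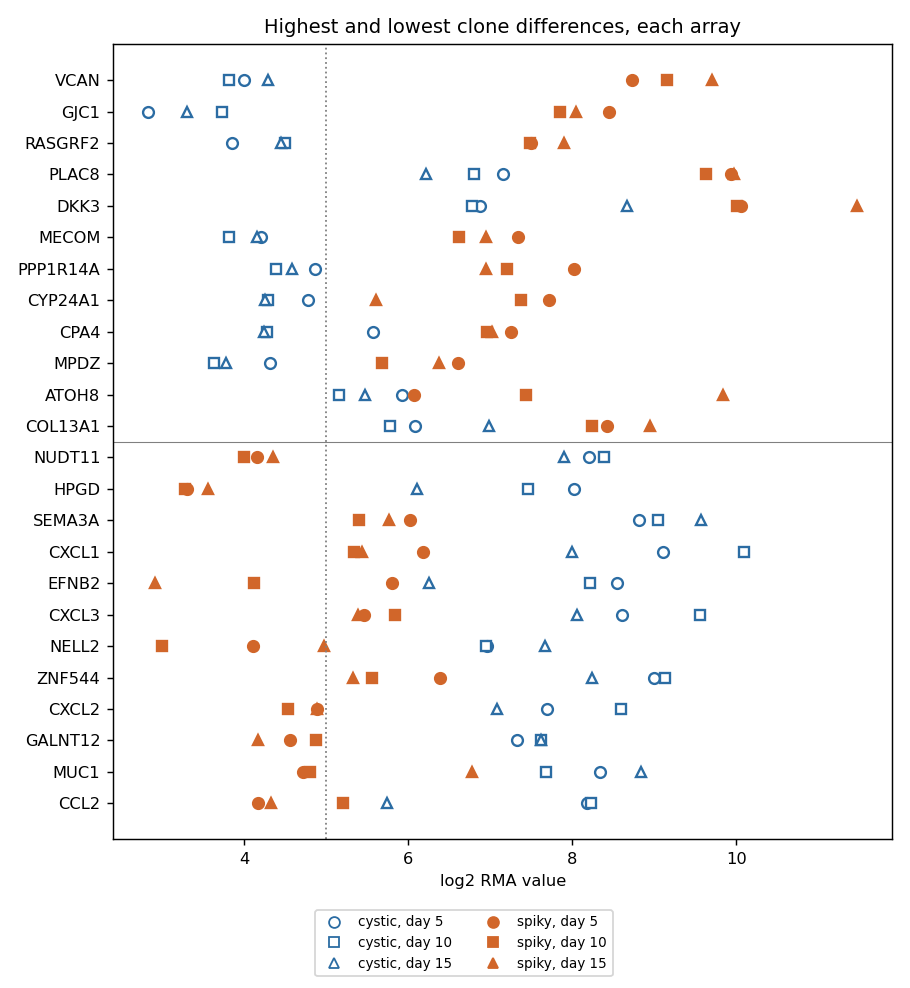
Log2 level on each array of the 12 genes with the highest (upper part) and the 12 with the lowest fitted differences (lower part) among called genes whose sign was shared by the 3 days. Open symbols are cystic and filled symbols spiky arrays, the symbol shape gives the culture day, and the dotted line at log2 5 marks the level below which folds are given as bounds. For each of the 24 genes the arrays of the clones do not overlap.

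The chemokine and cytokine list was the most densely called. Of its 25 tested genes 11 were lower (44.0%, against 7.74% of all tested genes) and 1 was higher. The list median was -0.54 against -0.03 over all genes. The list was taken by symbol pattern and also held genes that are neither chemokines nor cytokines, such as PIGR and LCN2. CXCL1, CXCL2, CXCL3 and CXCL8 attract neutrophils through CXCR2. CXCL1 was at 9.11, 10.09 and 8.0 in the cystic and 6.18, 5.34 and 5.43 in the spiky clone, and CXCL3 at 8.60, 9.55 and 8.05 against 5.46, 5.83 and 5.38. CXCL2, on an _x_at probe set that can detect related genes, was at 7.69, 8.59 and 7.08 against 4.89, 4.53 and 4.89. In the cystic clone all 3 were brightest at day 10, and the differences were largest there. CXCL8 was at 9.18, 10.25 and 7.48 against 7.12, 7.17 and 5.64 (5.01-fold), and the monocyte chemokine CCL2 at 8.18, 8.22 and 5.74 against 4.17, 5.2 and 4.33. The remaining lower members were TNFSF15 (-1.22), IL23A (-0.95), LCN2 (-0.92), CCL22 (-0.70), TNFSF9 (-0.54) and IL1RN (-0.53). PIGR, which carries immunoglobulin A across epithelium, was the higher one, at 6.63, 7.25 and 9.75 against 8.81, 9.07 and 11.33. Without day 5 the lower count was 5, without day 10 it was 7 and without day 15 it was 13, when 2.90%, 4.19% and 11.4% of all genes were lower. The 4 tested leukocyte markers also had negative differences, PTPRC being close to background in both clones, and their part in the chemokine result was not tested.

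The promoters of CXCL1, CXCL2 and CXCL3 are shown because each carries the 10-letter NF-kB consensus close to the gene start. The window of CXCL8, which differed in the same direction, held 0 exact matches of this consensus and 1 of the AP-1 letters. That window also holds 10 letters that differ from the consensus only in the first, so 0 exact matches do not mean that a site is absent. The windows span the RefSeq gene start (GRCh38.p14) and are written 5′ to 3′ on the strand of the gene, and capitals mark an overlapping pair of consensus matches.
CXCL1: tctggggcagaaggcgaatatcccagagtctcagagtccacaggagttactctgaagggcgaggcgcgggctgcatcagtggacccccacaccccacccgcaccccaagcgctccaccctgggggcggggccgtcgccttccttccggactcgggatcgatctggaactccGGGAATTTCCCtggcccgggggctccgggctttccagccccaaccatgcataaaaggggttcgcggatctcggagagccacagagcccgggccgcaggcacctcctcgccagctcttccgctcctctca
CXCL2: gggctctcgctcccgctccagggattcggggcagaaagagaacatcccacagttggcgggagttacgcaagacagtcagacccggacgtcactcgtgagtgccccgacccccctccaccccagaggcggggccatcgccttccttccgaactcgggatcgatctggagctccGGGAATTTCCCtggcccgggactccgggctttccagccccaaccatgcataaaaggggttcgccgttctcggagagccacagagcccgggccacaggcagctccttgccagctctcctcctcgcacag
CXCL3: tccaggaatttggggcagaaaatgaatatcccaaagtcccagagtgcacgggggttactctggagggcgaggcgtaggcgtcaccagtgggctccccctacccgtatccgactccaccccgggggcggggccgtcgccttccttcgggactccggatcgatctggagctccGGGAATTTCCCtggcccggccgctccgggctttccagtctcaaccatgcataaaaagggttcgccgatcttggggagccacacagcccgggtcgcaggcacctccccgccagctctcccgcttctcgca
They lie at chr4:73869143-73869442 on the plus strand, chr4:74099146-74099445 on the minus strand and chr4:74038640-74038939 on the minus strand. The first match began 79, 78 and 79 bases before the start of CXCL1, CXCL2 and CXCL3. Of the 11 lower members of the list 10 had a promoter in the table, and 6 of these (60.0%) held the consensus on either strand, while 4 (40.0%) held the AP-1 letters TGACTCA on either strand. Among 10003 tested genes with a promoter the shares were 13.2% and 3.17%, among 786 genes called lower 16.2% and 3.69%, and among 385 called higher 13% and 1.82%. CXCL1, CXCL2 and CXCL3, related genes on chromosome 4 with the same letters in capitals, are among the 6 and are not independent of each other. The share among list members that were not called lower was not computed, so the letters cannot be tied to the lower level. These shares describe letters in a window and not binding.

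Most cytokine receptor genes were not called, as held for all tested genes. Of 57 tested cytokine, chemokine and TNF receptor or JAK-STAT genes 8 were lower (14%) and 1 was higher, with a median of -0.08. The interferon receptor subunit genes IFNAR1 (-0.77), IFNAR2 (-1.04) and IFNGR2 (-0.73) lie on chromosome 21, IL11RA (-1.02) on chromosome 9 and the osteoprotegerin gene TNFRSF11B (-1.26) elsewhere. IFNAR2 was at 9.42, 9.57 and 9.56 in the cystic and 8.82, 8.29 and 8.32 in the spiky clone. TNFRSF1B, which encodes TNF receptor 2, was at 6.51, 6.74 and 7.42 against 7.73, 7.56 and 8.17 (adjusted p = 0.00706). With chromosomes 13 and 21 left out, 5 of 53 receptor genes were lower. The counts without day 5, 10 and 15 were 1, 6 and 10 lower and 0, 1 and 3 higher.

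Guidance genes changed in both directions and with large differences. Of 43 tested semaphorin, ephrin, netrin and slit genes 11 were lower (25.6%) and 4 higher (9.30%), with a median of -0.20. Among ligands, SEMA3A was at 8.81, 9.04 and 9.57 in the cystic and 6.02, 5.40 and 5.76 in the spiky clone (10.7-fold, adjusted p = 8.66e-05), the ephrin gene EFNB2 on chromosome 13 at 8.54, 8.21 and 6.25 against 5.80, 4.12 and 2.91, and NELL2, a ligand of ROBO3, at 6.96, 6.95 and 7.67 against 4.10, 2.99 and 4.97. The arrays did not overlap for any of these. SEMA3C (-1.27), SEMA4B (-1.07) and SEMA4D (-1.01) were also lower. Both neuropilin genes, which encode co-receptors of class 3 semaphorins, were higher: NRP1 was at 6.30, 5.98 and 6.69 against 7.65, 7.54 and 8.0, and NRP2 at 5.49, 6.08 and 5.73 against 7.71, 6.94 and 7.27. All 6 other bright NRP2 probe sets had the same sign. SEMA3F (1.27) and the ephrin gene EFNA5 (1.77) were the higher ligands, whereas the receptor genes UNC5B (-1.57), EPHA7 (-1.17), EPHA4 (-1.08), NEO1 (-0.75) and PLXNA1 (-0.61) were lower. Without day 5, 10 or 15 the lower count was 8, 10 and 14, and the higher count was 4 each time.

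Among proteases and protease inhibitors more members were called lower than higher. Of 98 tested members 28 were lower (28.6%), 2 higher (2.04%) and 68 not called, with medians of -0.26, -0.28 and -0.19 at the 3 days. The group joined enzymes and their inhibitors. MMP7, a matrix protease of epithelial cells, was at 8.08, 9.12 and 7.83 in the cystic and 5.35, 6.24 and 6.0 in the spiky clone (5.57-fold, adjusted p = 0.000371), and the plasminogen activator genes PLAU and PLAT differed by -1.53 and -1.08. SERPINE2, an inhibitor of thrombin and urokinase, was at 7.62, 7.52 and 7.92 against 5.84, 6.2 and 5.83. SERPINA1, which encodes alpha-1 antitrypsin, was at 8.24, 7.85 and 9.43 against 4.81, 4.56 and 7.82, with its smallest difference at day 15. TIMP3 (-1.21), SLPI (-1.83), the cystatin genes CST1 (-1.77) and CST4 (-1.45), the transmembrane protease genes TMPRSS3 (-2.14) and TMPRSS2 (-1.0), both on chromosome 21, and the cathepsin gene CTSS (-1.36) were lower as well. CPA4 and the carboxypeptidase gene CPM, at 6.41, 5.70 and 7.0 against 7.67, 7.23 and 7.84, were the higher members. The lower count was 15, 24 and 31 without day 5, 10 and 15.

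**Figure D3:**
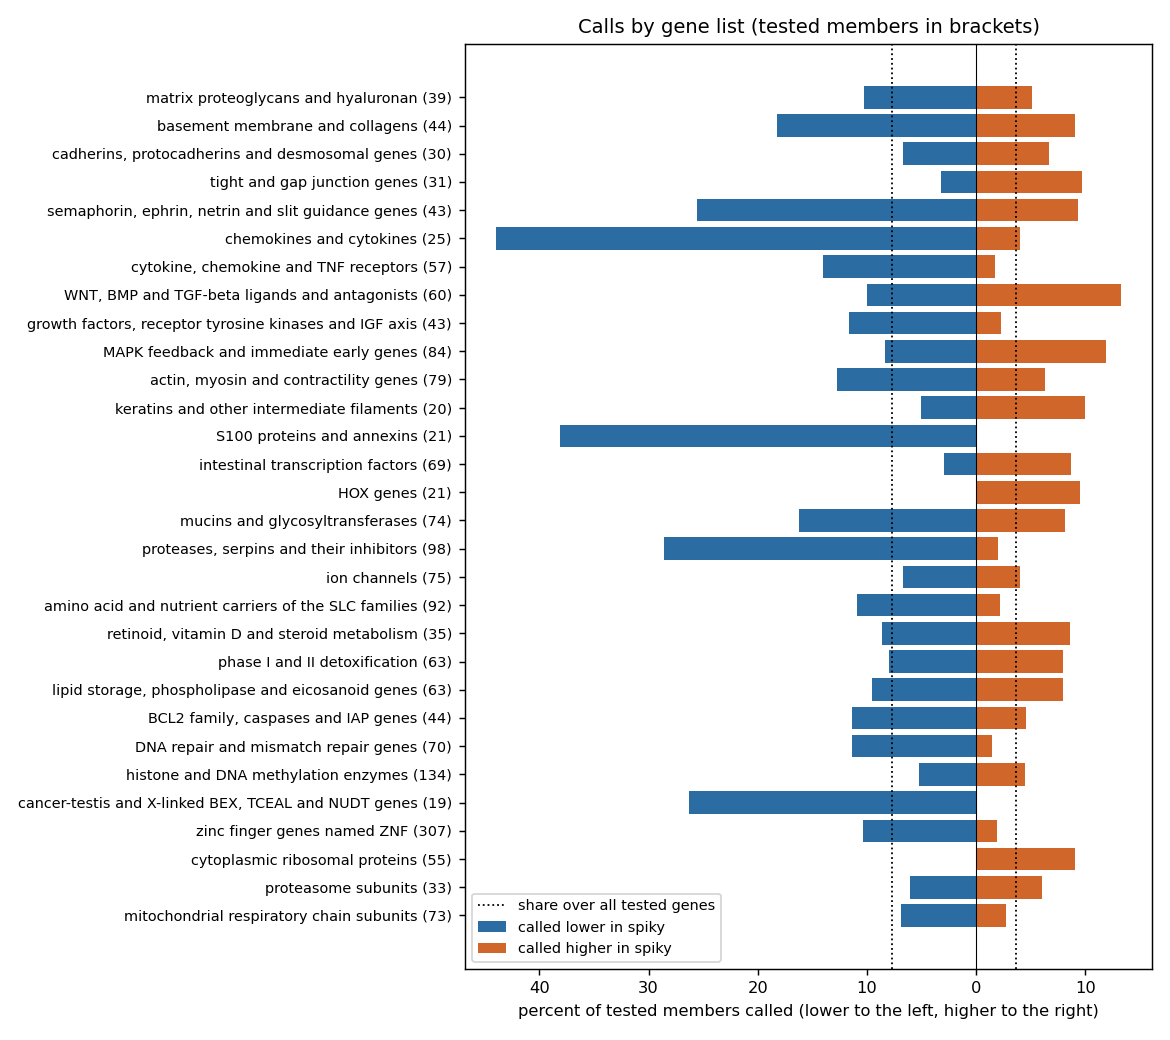
Percent of the tested members of each gene list described that were called lower (left) or higher (right) in the spiky clone, with the number tested in brackets. Dotted lines mark the shares over all tested genes, 7.74% lower and 3.67% higher, and the bars of the chemokine, S100, protease, cancer-testis and guidance lists reach farthest to the left.

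Matrix genes other than VCAN were divided. Of 39 proteoglycan and hyaluronan genes 4 were lower (10.3%) and 2 higher (5.13%). CD44, the main hyaluronan receptor, was at 10.12, 10.03 and 9.97 in the cystic and 11.06, 11.04 and 11.11 in the spiky clone (adjusted p = 0.000236). CEMIP, which helps to break down hyaluronan, was lower, at 7.14, 7.93 and 9.53 in the spiky against 9.01, 9.35 and 10.24 in the cystic clone, and CHST15, which sulfates chondroitin chains, differed by -2.00. Of 44 basement membrane and collagen genes 8 were lower (18.2%) and 4 higher (9.09%). The laminin chain gene LAMC1 was at 8.96, 8.72 and 8.43 against 9.93, 9.96 and 9.97, while the laminin chain gene LAMA2 (-1.13), COL12A1 (-1.23), the lysyl oxidase genes LOXL4 (-1.12) and LOXL1 (-0.89) and ECM1 were lower. ECM1 kept nearly the same distance at each day, at 7.42, 6.92 and 7.55 against 6.01, 5.34 and 6.08. COL1A1, a fibroblast marker, was not called (-0.43, adjusted p = 0.158). Without day 5, 10 and 15 the proteoglycan list had 2, 2 and 7 lower and 2, 2 and 2 higher calls, and the basement membrane list 3, 4 and 10 lower and 2, 3 and 4 higher.

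Most junction and adhesion genes were not called, as held for all tested genes (10912 of 12317). Of 31 tight and gap junction genes 3 were higher and 1 lower, the connexin 26 gene GJB2 on chromosome 13, at 7.46, 7.19 and 6.51 in the cystic and 5.50, 5.37 and 5.64 in the spiky clone. The connexin genes GJC1 and GJB2 thus differed in opposite directions, and CGN, which encodes the tight junction protein cingulin, was higher (0.78). For 14 of the 31 genes the 95% interval of the difference lay within log2 0.5 of 0. Of 30 cadherin, protocadherin and desmosomal genes 2 were lower, the adhesion gene L1CAM (-1.10, adjusted p = 0.0073) and the desmosomal DSC2 (-0.81), and 2 higher, PKP4 (0.48) and ALCAM (0.45), shares of 6.67% each. Of 20 keratins and other intermediate filament genes KRT13 was lower (-1.49), and KRT7 (0.50) and KRT80 (0.70) were higher. Leaving out day 5, 10 and 15 gave 1, 1 and 1 lower and 2, 3 and 4 higher for the junction list, 0, 1 and 6 lower and 0, 1 and 2 higher for the cadherin list and 0, 1 and 2 lower and 0, 1 and 2 higher for the filament list.

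Among WNT, BMP and TGF-beta genes 8 of 60 were higher (13.3%) and 6 lower (10.0%), with a median of -0.04 that became 0.02 with arrays centred and 0.01 with cyclic loess. The dickkopf genes differed in direction. DKK1, which blocks the WNT co-receptors, was at 8.72, 8.77 and 6.46 in the cystic and 10.14, 10.13 and 9.21 in the spiky clone, and DKK3 was higher too, whereas DKK4 was at 6.56, 6.99 and 11.36 against 4.45, 5.63 and 10.13 (-1.56, adjusted p = 0.00152). All DKK4 arrays of day 15 lay above all earlier ones, and the spiky value was the lower one at each day. BMP4 was at 8.99, 8.22 and 8.54 against 10.13, 9.60 and 9.66 (adjusted p = 0.000401), and the BMP decoy receptor BAMBI was lower (-1.09). TGFBR1, on chromosome 9, was lower (-0.93) and the co-receptor TGFBR3 higher (0.99). The counts were 4 higher and 1 lower without day 5, 5 and 3 without day 10, and 7 and 9 without day 15.

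Growth factor and receptor tyrosine kinase genes gave 5 lower (11.6%) and 1 higher of 43. ROR1, a WNT5A receptor, was the higher one, at 5.04, 4.02 and 4.31 in the cystic and 6.14, 5.97 and 5.81 in the spiky clone. The adaptor gene GRB10, an inhibitor of insulin receptor signalling, was at 7.0, 6.43 and 7.26 against 5.41, 5.26 and 5.24, and the insulin receptor substrate gene IRS2 on chromosome 13 (-1.42) and the IGF binding protein genes IGFBP4 (-1.24) and IGFBP6 (-1.01) were lower with it, beside the EGFR ligand gene EREG (-0.95). With day 5, 10 and 15 left out in turn, the growth factor list had 3, 5 and 7 lower and 1, 1 and 3 higher calls.

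MAPK feedback and immediate early genes were called in both directions, 10 of 84 higher (11.9%) and 7 lower (8.33%), with a median of 0.02. DUSP4, a MAPK phosphatase, was at 6.29, 5.35 and 5.22 in the cystic and 7.71, 6.86 and 6.57 in the spiky clone, whereas DUSP10 (-1.26), DUSP14 (-0.66) and DUSP6 (-0.44) were lower. The kinase gene MAP3K1 was at 9.29, 9.89 and 9.98 against 7.97, 8.16 and 8.95 (adjusted p = 0.000811). FOSL1 (0.79), KLF6 (0.59), EGR1 (0.55) and IER2 (0.52) were higher and FOSL2 (-0.63) lower. The counts of this list moved with the days used, as did the shares over all tested genes. There was 1 higher and 1 lower call without day 5, 7 and 1 without day 10, and 12 and 11 without day 15.

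In the cytoskeletal list 10 of 79 genes were lower (12.7%) and 5 higher (6.33%). PPP1R14A was joined by FSCN1, an actin bundler of protrusions, at 6.52, 6.18 and 6.98 in the cystic and 7.80, 7.77 and 8.02 in the spiky clone, and by DIAPH2 (0.75) and CNN3 (0.72). The microvillar genes VIL1 (-0.68) and EPS8L3 (-0.61), the bundler LCP1 on chromosome 13 (-1.45), RDX (-1.10) and the severing protein gene GSN (-0.87) were lower. TMSB4X, which sequesters actin monomers, was the only call without 1 sign at all days, at 12.68, 12.69 and 12.38 against 12.15, 12.18 and 12.38. Its arrays of day 15 were level, and its adjusted p was 0.0493. The list held 1, 3 and 16 lower and 4, 3 and 7 higher calls without day 5, 10 and 15.

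S100 and annexin genes were called in 1 direction. Of 21 tested members 8 were lower (38.1%) and 0 higher (1 higher in limma at an unadjusted p under 0.05). S100A4, linked to motility, was at 12.56, 12.46 and 12.94 in the cystic and 10.42, 10.39 and 11.83 in the spiky clone. S100A10 was at 11.54, 11.13 and 10.64 against 10.60, 9.97 and 9.11. Both lie on chromosome 1, and members of a family that are neighbours are not independent of each other. S100A3 (-1.16), ANXA4 (-0.80), ANXA9 (-0.80), S100A11 (-0.50), S100A13 (-0.44) and S100A2 (-0.34) completed the group. The other bright probe set of ANXA9 and that of S100A13 had the opposite sign. Over all 21 members the median difference was -0.20 at day 5, -0.32 at day 10 and 0.07 at day 15, so over the whole list the shift was not seen at day 15. Its counts without day 5, 10 and 15 were 5, 6 and 11 lower and 0, 0 and 1 higher.

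In a list of transcription factors taken by symbol pattern and labelled intestinal, more members were called higher than lower. Of its 69 tested genes 6 were higher (8.70%) and 2 lower (2.90%). The label does not stand for an intestinal programme, and CDX1 and CDX2 had group means under log2 5 in both clones. Besides MECOM and ATOH8, FOXQ1 was at 9.24, 8.91 and 8.19 in the cystic and 10.17, 9.87 and 11.01 in the spiky clone, and FOXD1 at 6.68, 6.05 and 6.08 against 7.65, 7.26 and 6.78. The ETS factor gene ELF1 on chromosome 13 (-0.80) and VDR were the lower ones. Of 21 HOX genes HOXB5 (0.64) and HOXB7 (0.39), both on chromosome 17, were higher and 0 were lower (2 in limma at an unadjusted p under 0.05). For the transcription factors the counts without day 5, 10 and 15 were 2, 1 and 5 lower and 3, 6 and 8 higher, and for the HOX genes 0, 0 and 2 lower and 0, 1 and 4 higher. IRX2, outside these lists and named because its difference was at least log2 1 at each day, was at 4.95, 5.10 and 4.86 against 7.24, 6.97 and 7.04.

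Of 74 mucin and glycosyltransferase genes 12 were lower (16.2%) and 6 higher (8.11%). MUC1 and GALNT12 were joined among the lower genes by the gel-forming mucin MUC5B (-1.35), the trefoil factor TFF1 (-1.06, on chromosome 21), the disulfide isomerase AGR2 (-0.64), needed for mucin folding, and B3GALT5 (-1.39, on chromosome 21). Among the higher ones were FUT4, a fucosyltransferase that makes Lewis X, at 8.58, 8.57 and 7.55 in the cystic and 9.54, 9.36 and 8.91 in the spiky clone, GALNT1 (1.07) and B4GALT6 (1.29). GALNT1 and GALNT12, which catalyse the same kind of step, thus differed in opposite directions. Calls without day 5, 10 and 15 numbered 5, 9 and 17 lower and 3, 6 and 4 higher.

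Transport genes held single large differences. Of 75 ion channel genes 5 were lower (6.67%) and 3 higher (4.0%), close to the background. CFTR, the apical chloride channel, was at 9.07, 9.34 and 9.70 in the cystic and 10.10, 10.34 and 11.02 in the spiky clone (adjusted p = 0.000394). The inward rectifier potassium channel gene KCNJ4 was at 11.15, 10.47 and 11.52 against 7.61, 7.61 and 10.19, and the water channel gene AQP3 at 13.13, 13.36 and 13.58 against 12.69, 12.46 and 13.06. Of 92 solute carrier genes 10 were lower (10.9%) and 2 higher (2.17%). SLC2A1, which encodes the glucose transporter GLUT1, was at 10.02, 9.53 and 10.76 against 8.69, 8.22 and 9.84, the neutral amino acid carrier gene SLC1A4 at 7.93, 7.53 and 7.12 against 5.85, 5.74 and 5.82, and the bile acid and drug carrier gene SLCO1B3 at 7.55, 7.86 and 8.24 against 8.96, 9.18 and 9.79. For SLC1A4, on an _x_at probe set, 2 of 3 other bright probe sets had the same sign. The channel list had 3, 3 and 9 lower and 1, 2 and 3 higher calls without day 5, 10 and 15, and the carrier list 7, 7 and 13 lower and 2, 2 and 3 higher.

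Metabolic lists were mixed. ALDH1A1, which makes retinoic acid, was at 8.03, 7.58 and 7.53 in the cystic and 9.36, 9.44 and 10.67 in the spiky clone, and of 35 genes of retinoid, vitamin D and steroid metabolism 3 were higher and 3 lower (8.57% each). UGT1A6 was at 9.52, 8.49 and 8.19 against 10.68, 10.27 and 10.56. Genes of the UGT1A locus share exons, so this probe set may also detect relatives. Of 63 detoxification genes 5 were higher and 5 lower (7.94% each), and NNMT, which methylates nicotinamide, differed by -1.80. Among 63 genes of the lipid and eicosanoid list 6 were lower (9.52%) and 5 higher (7.94%). The list was taken by symbol pattern rather than by function, and PLAC8 is counted among the 5. The prostaglandin E2 synthase gene PTGES was at 8.14, 8.04 and 8.12 against 6.02, 6.57 and 7.75, and the cyclooxygenase gene PTGS2 at 10.67, 10.95 and 11.32 against 10.07, 10.19 and 10.09, so enzymes of both synthesis and breakdown of prostaglandin E2 were lower in the spiky clone. GPAT3, of triglyceride synthesis, was at 6.49, 6.26 and 4.40 against 8.36, 7.73 and 5.97. Leaving out each day in the same order gave 1, 1 and 6 lower and 2, 2 and 3 higher for the retinoid list, 1, 2 and 10 lower and 1, 4 and 6 higher for detoxification and 3, 5 and 6 lower and 2, 4 and 6 higher for the lipid list.

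Lists of survival, repair and chromatin genes held calls in both directions, and cancer-testis and zinc finger genes are given beside them. Of 44 BCL2 family, caspase and IAP genes 5 were lower (11.4%), led by BCL2L15 (-1.55), and 2 higher (4.55%). Of 70 DNA repair genes 8 were lower (11.4%), among them XPA (-0.62) and, on chromosome 13, RB1 (-0.84), and XRCC4 was higher (0.57). Of 134 histone and DNA methylation enzyme genes 7 were lower (5.22%) and 6 higher (4.48%), and for 79 the interval of the difference lay within log2 0.5. The demethylase gene KDM4C was at 5.76, 5.60 and 5.58 in the cystic and 6.97, 6.47 and 7.13 in the spiky clone, and SETD4 on chromosome 21 differed by -0.76. Among 19 cancer-testis and X-linked BEX, TCEAL and NUDT genes 5 were lower (26.3%) and 0 higher (1 in limma at an unadjusted p under 0.05), led by NUDT11 and BEX5, at 9.48, 9.57 and 9.66 against 7.58, 7.24 and 8.32. Of 307 ZNF genes 32 were lower (10.4%) and 6 higher (1.95%), ZNF544 at 9.0, 9.13 and 8.24 against 6.39, 5.56 and 5.32 being the largest. Without day 5, 10 and 15 the calls were 1, 2 and 5 lower and 0, 2 and 2 higher for BCL2 family genes, 0, 2 and 10 lower and 0, 0 and 3 higher for repair and 2, 2 and 7 lower and 2, 4 and 7 higher for chromatin. They were 2, 3 and 9 lower and 0, 0 and 0 higher for the cancer-testis list and 13, 19 and 40 lower and 2, 6 and 9 higher for the ZNF genes.

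Housekeeping families set a scale for these values. Of 55 tested cytoplasmic ribosomal protein genes 5 were higher (9.09%) and 0 lower (0 in limma at an unadjusted p under 0.05), 2 had negative differences, and for 54 the interval lay within log2 0.5. Their median was 0.09, and it was 0.14 with arrays centred and 0.06 with cyclic loess. RPS6, on chromosome 9, was the largest at 0.51, from 12.61, 12.69 and 12.63 to 13.08, 13.14 and 13.22. Of 33 proteasome subunit genes 2 were higher and 2 lower (6.06% each), the lower ones being PSMA4 (-0.39) and the interferon-inducible PSMB9 (-0.54). Of 73 respiratory chain genes 5 were lower (6.85%) and 2 higher (2.74%), and ATP5PO, ATP5PF and NDUFV3, 3 of the 5 lower ones, lie on chromosome 21. Without day 5, 10 and 15 the calls were 0, 0 and 0 lower and 1, 2 and 9 higher for ribosomal, 1, 0 and 3 lower and 0, 0 and 7 higher for proteasome and 4, 4 and 6 lower and 0, 0 and 4 higher for respiratory chain genes. Over all tested genes the interval of the difference lay within log2 0.5 of 0 for 5565 (45.2%), and the 95% interval reached a median of 0.35 to either side.

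The steadiest differences were chosen for the smallest SD between days, so their evenness is a description. CTHRC1, a secreted glycoprotein, was at 10.19, 10.40 and 10.17 in the cystic and 8.71, 8.87 and 8.64 in the spiky clone, a difference of -1.51 with an SD of 0.02 between days (adjusted p = 8.94e-05). IL10RB, a receptor subunit gene on chromosome 21, was at 7.09, 6.91 and 7.44 against 5.89, 5.74 and 6.26, and FARP1, on chromosome 13, at 7.47, 7.72 and 7.67 against 6.15, 6.31 and 6.34. HLA-DRB1 was at 7.78, 7.46 and 8.93 against 6.61, 6.38 and 7.81, on an _x_at probe set that may detect its close relatives. Its arrays overlapped between clones although the daily difference had an SD of 0.04. The steadiest higher genes were CNTLN (SD 0.06), RMP24 (0.07), SPRY1 (0.08), an inhibitor of receptor tyrosine kinase signalling, and DUSP4 (0.08), with differences of 1.09, 1.09, 1.28 and 1.43.

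**Figure D4:**
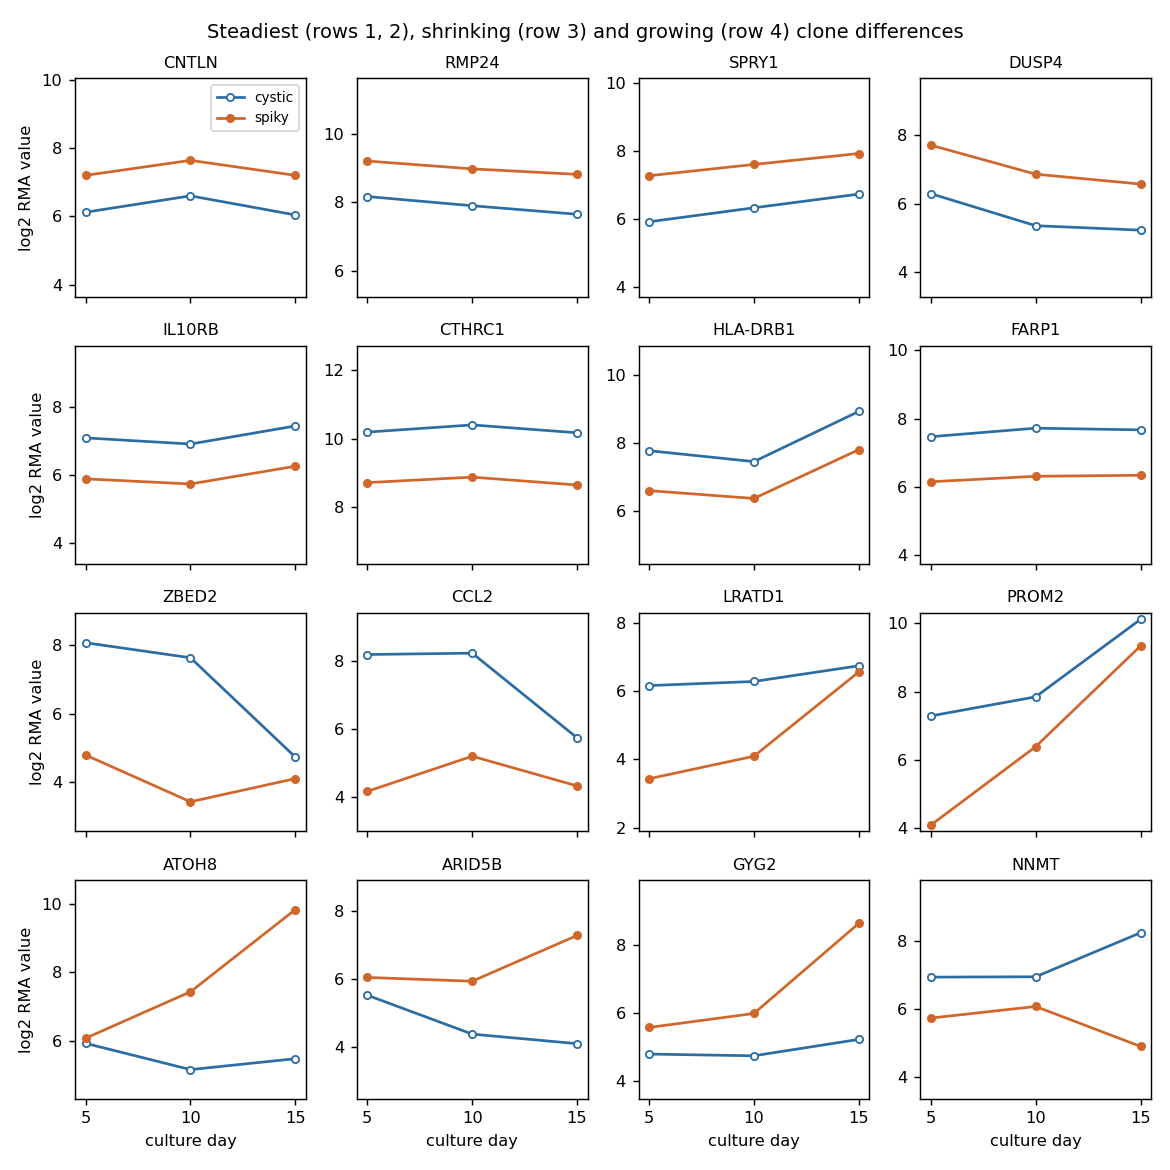
Log2 level by culture day of the 4 steadiest differences in each direction (rows 1 and 2), the 4 that shrank most (row 3) and the 4 that grew most (row 4) from day 5 to day 15 among called genes of at least log2 1, with 1 array per point and an equal span of the vertical axis in every panel. Lines run in parallel in rows 1 and 2, approach each other in row 3 and part in row 4.

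Other differences narrowed or widened over the culture. LRATD1 was at 6.16, 6.28 and 6.74 in the cystic and 3.43, 4.09 and 6.56 in the spiky clone, and PROM2, which shapes membrane protrusions, at 7.29, 7.85 and 10.12 against 4.09, 6.39 and 9.34. For both, the spiky value approached the cystic one. ZBED2 was at 8.08, 7.64 and 4.73 against 4.79, 3.42 and 4.10, where, as for CCL2, the cystic level was lowest at day 15. ARID5B, at 5.52, 4.38 and 4.10 against 6.04, 5.93 and 7.27, and GYG2, which primes glycogen synthesis, at 4.80, 4.75 and 5.23 against 5.58, 5.99 and 8.63, widened together with ATOH8 and NNMT. NNMT was at 6.93, 6.94 and 8.23 against 5.73, 6.07 and 4.90. The planned test of a change of the difference with day, in limma with day as a number, called 0 of 12317 genes (309, or 2.51%, at an unadjusted p under 0.05), and 31 without the spiky array of day 5 or 1 without that of day 10. A model chosen after seeing the data, with culture day also kept as a factor and 1 residual degree of freedom, called 73 genes. On simulated data its share of false calls was 19.2%, above the threshold of 0.05, so single calls of this later model are less certain. The planned test also lay above the threshold, at 7.5%, while the clone comparison was at 0.862%. The planned test found 4.29% of the genes given a change of log2 1 and 44.6% of those given log2 2. Its 0 calls thus do not mean that the differences stayed constant. Of the 73 genes, 56 had a difference that moved up with day and 17 one that moved down. The largest among genes named here was ATOH8, whose difference moved up by 4.21 per 10 days (SE 0.43, limma adjusted p = 5.71e-05), while ZBED2 (adjusted p = 0.144) and NNMT (adjusted p = 0.114) did not pass.

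Other probe sets of the called genes mostly had the same sign. Of 1405 called genes 807 had at least 1 further probe set with a mean of log2 5 or more, and 1446 of these 1563 probe sets (92.5%) pointed the same way. Among called genes of at least log2 1 the count was 306 of 314 (97.5%). Probe sets of a gene share the RNA and the array, so this agreement describes the measurement of the transcript and adds no replicate. For 69 called genes the chosen probe set was of the _x_at type.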

How the data were processed

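The deposited values are log2 levels per probe set, which the authors computed with RMA according to the submitters' processing notes, without a stated version. Of 54675 probe sets 41097 had 1 gene symbol in the platform's table, 1801 several and 11777 none. Symbols were updated by gene ID to RefSeq (GRCh38.p14, 41043 matched). The brightest probe set on average stood for a gene, among those with a single symbol, and 5 was the lowest mean log2 level tested.

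Limma 3.58.1 in R 4.3.3 modelled the 6 arrays by colony shape, culture day (as a factor) and a variance prior that follows intensity, leaving 2 residual degrees of freedom, with two-sided tests, Benjamini-Hochberg adjustment and a threshold of 0.05. Day was kept as a block because both clones were taken at the same days; deviations from the clone means correlated at 0.608, 0.496 and 0.719 across genes within day 5, 10 and 15. The fit was tested on simulated data. Figures were drawn with matplotlib 3.10.9 from these values.

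Folds set arrays of the dimmer clone under log2 5 to 5 and are then lower bounds. The members and the 35 gene lists were chosen with earlier results of these data known, the lists by symbol pattern. The result of 1 list is not reported here. The naming rule took 12 differences from each end of the called genes with a shared sign, genes dim in 1 clone and bright in the other, the steadiest and the most changing differences, and the members of each list with the smallest p, 2 in each direction. The other list members named were chosen after their values were seen, as were IRX2, TMSB4X, NRP2 and genes on chromosomes 13 and 21. Array scaling, the probe set used, the filter, the prior, the block and left-out arrays were varied.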

Additional observations from a re-analysis of the deposited data

Results flagged for a closer look

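For 11 genes named by the rule, the spiky minus cystic difference moved with culture day in limma with both day as a factor and a change of the difference per 10 days, a model chosen after seeing the data, with Benjamini-Hochberg adjustment. All 11 moved up, so that positive differences grew and negative ones shrank, but several had been chosen for a large change from day 5 to day 15. Over all genes 56 of 73 calls moved up and 17 down, and among the latter were EREG (-1.41, adjusted p = 0.00849) and FOSL1 (-0.99, adjusted p = 0.0282). None of the 11 passed in the planned model, where each had an adjusted p of 0.999. The largest movement was that of ATOH8, by 4.21 (SE 0.43, adjusted p = 5.71e-05). Among genes with positive differences, ARID5B moved by 2.66 (adjusted p = 0.0107), GYG2 by 2.63 (adjusted p = 0.0216), ALDH1A1 by 1.82 (adjusted p = 0.00417) and UGT1A6 by 1.21 (adjusted p = 0.0104). Among those with negative differences, CCL2 moved by 2.61 (adjusted p = 0.0102), LRATD1 by 2.55 (adjusted p = 0.0249), PROM2 by 2.42 (adjusted p = 0.00505), KCNJ4 by 2.22 (adjusted p = 9.91e-05) and S100A4 by 1.02 (adjusted p = 0.00849). ZFP36L1, which encodes a protein that destabilises mRNAs, moved by 0.74 (adjusted p = 0.0469). The model chosen after seeing the data had 1 residual degree of freedom, and on simulated data its share of false calls was 19.2%, above the threshold of 0.05. The share of the planned model was 7.5%, also above it.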

How the results depend on the processing

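With culture day left out of the model (no replicate block), 72 genes were called, 19 higher and 53 lower, and with day as a number 566, 159 and 407. Without the intensity trend of the prior there were 691, 182 and 509. Leaving out 1 array or 1 day gave 498 to 2171 calls, 141 to 768 higher and 357 to 1408 lower, with the fewest without day 5 and the most without day 15. Filters, probe set rules, scaling and the robust prior gave 1094 to 1446 calls. The main calls kept their sign in each of these settings, except 7 of 1283 with probe sets averaged and 4 of 1384 without _x_at probe sets. Changing the prior, the block or the level filter leaves the fitted difference as it was, so the sign could not change there. With an array or a day left out it could hardly change, since 1404 of 1405 calls kept 1 sign at all days. CFLAR became -0.08 and SULT1A1 0.14 without _x_at probe sets. With limits of log2 4 and 6 the genes dim in 1 clone and bright in the other numbered 2, GJC1 and HPGD, against 6. The change with day, 0 calls as planned, ranged from 0 to 31 with 1 array left out and was 73 with day as a factor. Signal near background limits fold sizes of dim genes, and 2 residual degrees of freedom limit which small differences pass.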

Other observations

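Neighbouring genes on chromosome 18 had similar differences, a stretch noticed in the values and therefore given without a test. Of 16 tested genes from B4GALT6 to SLC39A6 in RefSeq order, 13 had positive differences, 9 were called higher and 0 lower, with a median of 0.75 and a range from -0.11 to 1.29. RMP24 and GALNT1 lie in it. Over the other 149 tested genes of the chromosome 9 were higher and the median was 0.05. RASGRF2 and VCAN, both dim in the cystic clone, lie 10 tested genes apart end to end on chromosome 5. That stretch had a median of 0.09, with 3 of 10 genes called higher.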
